A study of Homo sapiens with 4 samples.

Results

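Reh-6-MPR cells, a line of the human B-cell acute lymphoblastic leukemia (B-ALL) line Reh made resistant by repeated exposure to rising concentrations of 6-mercaptopurine (6-MP), were compared with and without 6-MP while histidine was present. All 4 RNA-seq libraries of the study were from this line, which its methods kept free of 6-MP for weeks before an experiment, and each was collected after 48 h. The cells received PBS (vehicle), 4 mM histidine, 1.0 μg/mL 6-MP, or both agents at these doses (the combined treatment), with 1 library each. The main comparison was the library of the combined treatment minus that of histidine, and it was set beside 6-MP minus vehicle, a pair of libraries that shares none with the first. Both are given as differences of log2(FPKM + 1), where FPKM is the number of fragments of a gene per kilobase of its length and per 1000000 fragments of the library. This scale understates differences of genes with low FPKM. Of 29833 listed genes, the 12750 whose FPKM averaged at least 1 were compared, and a log2 difference of at least 1 in either direction was counted as past the threshold. With 1 library per treatment there is no replicate error and no test, so every difference is one between libraries. The 95% intervals given for single genes are on the log2 ratio of the reads behind the FPKM values, and they cover counting error only.

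6-MP is a thiopurine. It is joined to a ribose phosphate by the salvage enzyme HPRT1 and turned in steps into thioguanine nucleotides, which are built into DNA, where mismatch repair meets them. Some of its methylated products also block the first step of de novo purine synthesis. Damaged DNA stabilises p53, a transcription factor that turns on cell cycle inhibitors, DNA repair genes and cell death genes. Histidine is broken down by HAL, UROC1, AMDHD1 and FTCD, a pathway that as a whole uses tetrahydrofolate, the carrier of one-carbon units on which purine synthesis depends.

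The depth ran from 12899122 reads with the combined treatment to 15486376 with histidine. The combined treatment nevertheless had the most genes above 0, at 25443, against 23635 with vehicle, 23652 with 6-MP and 23978 with histidine. The part of this in the results below was not tested. The labelled cell type was checked against 16 B-lineage markers. Of these, 15 were listed and passed the expression filter, and their summed FPKM was between 2158 for the combined treatment and 2287 for 6-MP. DNTT, the terminal transferase of immature lymphocytes, lay between 497 and 625, and RAG1, which cuts antigen receptor genes, between 204 and 243. None of the 15 markers passed the threshold in either comparison. Of 10 T cell markers only TRAC passed the filter, at 11.6, 12.2, 12.2 and 32.1 FPKM with PBS, with histidine, with 6-MP and with both, an order kept below. It was past the threshold on histidine, at 1.32, and not alone, at 0.06. Of 11 monocyte and granulocyte markers only MPO passed the filter, at 27.7, 30.5, 26.4 and 41.0, of 6 stromal markers COL1A1 and PDGFRB did, and of 8 erythroid markers none. MPO, COL1A1 and PDGFRB were each highest with the combined treatment, with 0.42, 0.57 and 0.51 on histidine, below the threshold. The part of these transcripts in the results below was not tested.

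Added to histidine, 6-MP went with 529 genes higher and 178 lower by at least 1, which is 4.15% and 1.4% of the genes compared. Added to vehicle, it went with 59 higher and 92 lower, 0.463% and 0.722%. The expression filter used the mean of all 4 libraries, so a gene low in the other 3 could pass it through a high value with the combined treatment alone, and its being higher was then fixed by the filter. This held for 130 of the 529 genes higher on histidine, and 399 were higher without them. In the lists it held for FAS, ITGB2 and RGS16. The spread of the differences over all genes was 0.50 (SD across genes) on histidine and 0.25 alone, and their medians were 0.11 and 0.0039. In bulk RNA, fewer cells of a kind and less RNA per cell cannot be told apart. Scaling each library by its median ratio to the geometric mean moved the median on histidine from 0.11 to -0.06 and the counts to 346 higher and 294 lower, so that 54.1% of the genes past the threshold were higher instead of 74.8%. The calls below are therefore best read relative to that shift, and each list is given with its median and counts under this scaling, called scaled below. The unscaled counts of each list stand beside the 4.15% higher and 1.4% lower over all genes compared. The scaled counts stand beside the 346 higher and 294 lower of the 12687 genes that passed the filter with this scaling. No list member passed the threshold for 6-MP alone with either scaling.

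The 2 effects of 6-MP were then compared gene by gene. Across the 12750 genes, which are not independent replicates, Pearson's r between them was 0.07. In all, 28 genes were past it in both with the same sign, 11 higher and 17 lower, which is 3.96% of the 707 genes on histidine and 18.5% of the 151 genes alone. Over all genes compared, 5.55% were past it on histidine. By direction, 18.6% of the genes higher alone were also higher on histidine, where 4.15% of all genes were, and 18.5% of those lower alone were also lower, against 1.4%. With opposite signs, 15 of the 92 genes lower alone were higher on histidine, against the same 4.15%. Of the 59 genes higher alone, 5 were lower on histidine, against the same 1.4%. The overlap with the same sign is given next by class of gene. Of the 28 shared genes 19 were genes of small RNAs, 6 were pseudogenes and 3 were protein-coding. Among small RNAs, 6 of 31 genes higher alone (19.4%) were also higher on histidine, where 16.9% of the class were. Of its 65 genes lower alone, 13 (20%) were also lower on histidine, against 14.4% of the class. Among pseudogenes it was 2 of 10 higher (20%), against 5.52%, and 4 of 18 lower (22.2%), against 2.82%. Among protein-coding genes it was 3 of 12 higher (25%), against 2.84%, and 0 of 3 lower, against 0.71%. Among long noncoding RNAs it was 0 of 6 higher, against 8.85%, and 0 of 5 lower, against 1.68%. These counts are small and were not tested. The genes past the threshold differed in kind. Among 9997 protein-coding genes, 284 were higher and 71 lower on histidine, against 12 and 3 for 6-MP alone. Among 403 genes of small RNAs, which rested on a median of 5 to 6 reads over the libraries compared where they passed, the counts were 68 and 58 on histidine and 31 and 65 alone. Among 1368 long noncoding RNAs, 121 were higher (8.85%) and 23 lower (1.68%) on histidine, and 6 and 5 alone. The 95% counting interval excluded 0 for 598 of the 707 genes on histidine and for 45 of the 151 genes alone.

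**Figure D1:**
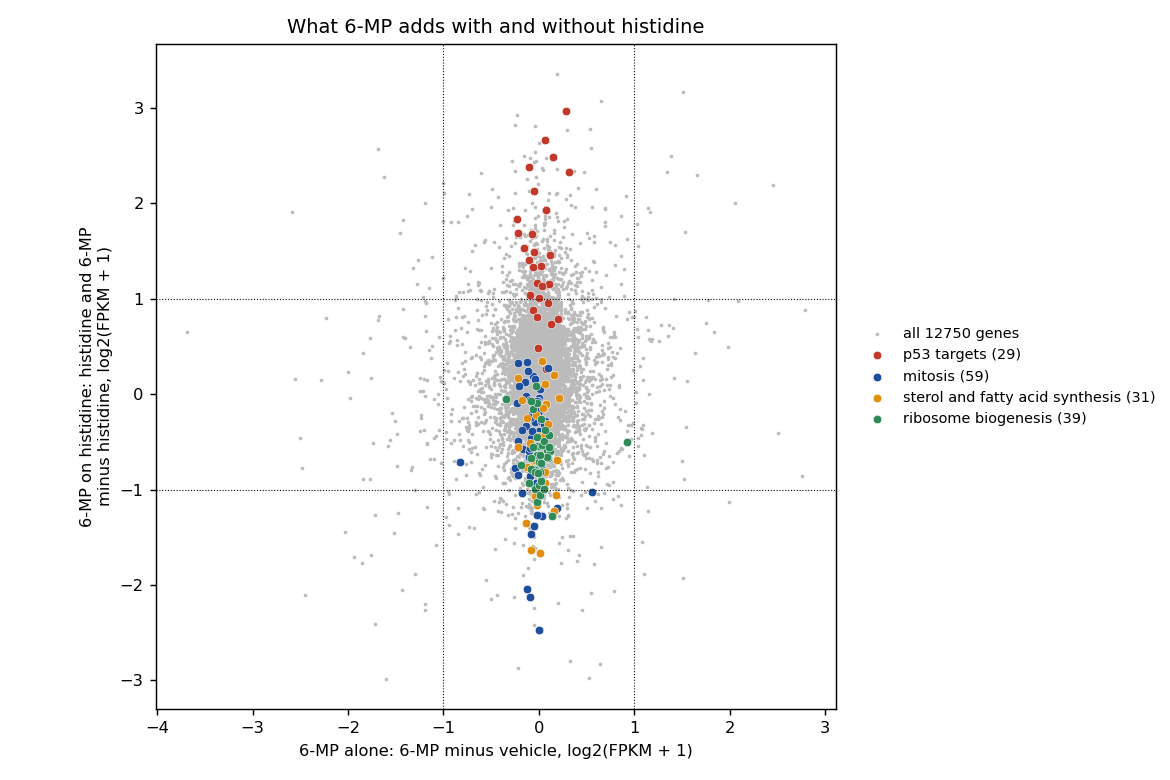
Difference of log2(FPKM + 1) for 6-MP on histidine (vertical axis) against 6-MP alone (horizontal axis), with 1 grey point for each of 12750 genes, coloured points for members of 4 gene lists and dotted lines at the threshold of 1 in both directions. The coloured lists spread along the vertical axis, with the 29 p53 targets above 0, while no member of these lists reaches the threshold on the horizontal axis.

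The median difference on histidine was higher at low levels than at high ones. Of 1045 protein-coding genes with a mean FPKM of 1 to 2, 58 were higher and 2 lower by at least 1, and the median difference was 0.23. Most of these 58 were fixed by the filter, since 48 passed it only through the combined treatment, and among the 856 genes of this band that did not, 10 were higher, 2 were lower and the median was 0.15. Of 260 whose mean was 100 or more, 1 was higher and 10 were lower, with a median of -0.19. The medians for 6-MP alone were 0.0083 and -0.01 in the same bands. The part of this trend in the lists below was not tested.

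The p53 targets were the group that stood highest. Of 33 listed genes 29 were compared, all 29 were above 0 on histidine, 22 were higher by at least 1 and none was lower, or 21 of 28 without FAS, which passed the filter only through the combined treatment. Their median difference was 1.35, against 0.11 over all genes compared and -0.0029 for the same genes with 6-MP alone, where none passed the threshold. Scaled, the median was 1.15 and 17 of the 29 were higher by at least 1, without BAX, PLK3, PMAIP1, RRM2B and XPC. PHLDA3 (ENSG00000174307), an inhibitor of AKT signalling on chromosome 1 of GRCh38 from 201464278 to 201469237, was at 1.34, 1.51, 1.85 and 18.7 FPKM, on 62, 76, 92 and 780 reads. The combined treatment stood alone and the other libraries lay close together, a pattern that most of the members shared. The log2 difference of PHLDA3 was 2.97 on histidine and 0.29 alone, and its read ratio on histidine was 3.62 on the log2 scale (95% interval 3.28 to 3.98).

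Some targets that act on the cell cycle were among those higher by at least 1. CDKN1A, which encodes the cyclin-dependent kinase inhibitor p21, lies on chromosome 6 from 36676460 to 36687337. It was at 48.6, 42.8, 41.4 and 155 FPKM in the same order, a difference of 1.83 on histidine and -0.23 alone. BTG2, an antiproliferative gene on chromosome 1 from 203305491 to 203309602, was at 12.1, 10.6, 12.8 and 72.4, a difference of 2.67 on histidine. GADD45A, a growth arrest gene, went from 11.6 with histidine to 39.4 with the combined treatment. TP53INP1, a nuclear protein of the p53 pathway, was at 2.74, 2.55, 3.14 and 19.0. The polo-like kinase PLK2 was at 1.89, 1.92, 1.70 and 14.2, a difference of 2.38 on histidine and -0.10 alone, whereas the mitotic PLK1 differed the other way, as given below.

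Cell death genes followed. BBC3, which encodes the BH3-only protein PUMA, was at 2.06, 2.21, 2.82 and 15.2 FPKM, a difference of 2.33. PMAIP1 (NOXA) was at 19.5, 19.7, 21.1 and 45.2, and BAX, an effector of mitochondrial permeabilisation, at 28.4, 26.9, 26.7 and 56.3. FAS, a death receptor, was low at 0.59, 0.49, 0.36 and 3.81, a difference of 1.69 on histidine, and TNFRSF10B, the TRAIL receptor DR5, was at 26.1, 24.7, 26.6 and 64.2. In the 4 of these genes other than FAS, whose place was fixed by the filter, the combined treatment was the highest library and the other 3 lay closer to each other than to it. Repair and metabolic targets included FDXR, a mitochondrial ferredoxin reductase, with a difference of 2.13, and DDB2 and XPC, which recognise damaged DNA, with 1.41 and 1.00. MDM2, the ubiquitin ligase that limits p53, had the smallest difference of the list, 0.26, from 37.1, 34.6, 39.3 and 41.7. SESN2 did not share the pattern, since its 3.51, 1.94, 4.18 and 4.08 set histidine apart from the others.

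**Figure D2:**
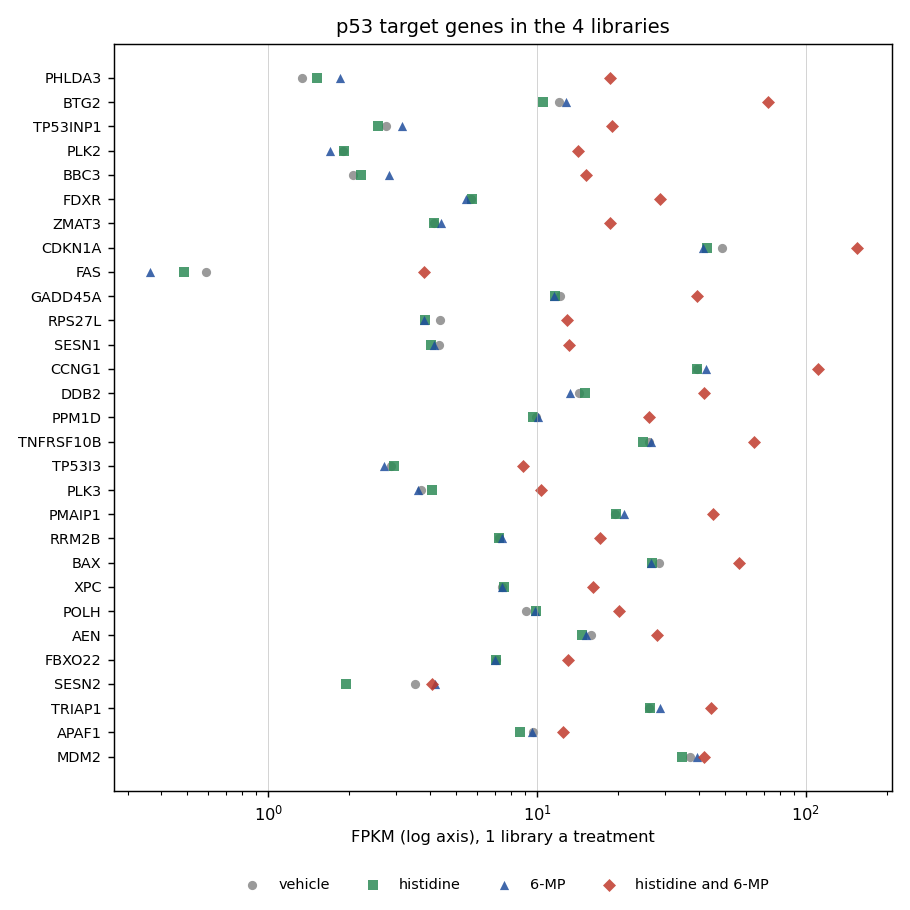
FPKM on a log axis of the 29 p53 targets compared, with 1 marker for each of the 4 libraries, sorted by the difference on histidine. The combined treatment is the rightmost marker for 28 of the 29 genes, from PHLDA3 at 18.7 FPKM down to MDM2 at 41.7, and for SESN2 it lies beside 6-MP.

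Over the BCL2 family as a whole, 5 of 15 genes compared were higher by at least 1 and none was lower, with a median of 0.35 on histidine and 0.03 alone. The scaled median was 0.21 and 3 were higher, without BAX and PMAIP1. Beside BBC3, PMAIP1 and BAX these were BMF and HRK, both BH3-only genes. BMF was at 1.49, 1.24, 1.45 and 6.36 FPKM, and HRK at 2.48, 2.86, 2.55 and 9.23. The antiapoptotic BCL2 went from 24.3 to 18.0, a difference of -0.41, and MCL1 from 43.9 to 41.7.

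The genes of mitosis lay mostly below 0 on histidine. Of 59 compared, 11 were lower by at least 1 and none was higher, and 50 lay below 0. Their median was -0.38 on histidine and -0.04 alone. Scaled, it was -0.58 and 15 were lower by at least 1. PIF1, a DNA helicase whose level peaks late in the cell cycle, was at 8.06, 9.47, 8.09 and 0.88 FPKM, on 537, 683, 578 and 53 reads. Its difference was -2.48 on histidine and 0.01 alone. PLK1, the main polo-like kinase of mitosis, was at 45.0, 45.4, 42.0 and 9.63, a difference of -2.13. CDC20, an activator of the anaphase-promoting complex, was at 157, 148, 144 and 35.3, a difference of -2.04. In all of them the combined treatment was the lowest library by a wide margin. HMMR, a spindle and hyaluronan-binding protein, was at 26.3, 26.6, 24.8 and 9.01, the kinase AURKA at 44.3, 43.5, 42.7 and 16.1, and the cyclin CCNB1 at 103, 102, 105 and 41.5. UBE2S, an E2 enzyme of the anaphase-promoting complex, was at 87.4, 131, 129 and 63.4, so that its difference of -1.03 on histidine started from a level that vehicle did not have.

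Many promoters of mitotic genes carry the cell cycle homology region TTTGAA, with the CCAAT box upstream of it. The promoters of the 3 mitotic genes lowest on histidine among those whose promoters hold TTTGAA are shown for this reason. That all 3 hold it was thus fixed by the choice. They are from RefSeq on GRCh38.p14, 250 bases before to 50 after the RefSeq start, 5′ to 3′ on the strand of the gene. TTTGAA and CCAAT or their reverse complements TTCAAA and ATTGG are in capitals. PIF1 is shown at chr15:64825598-64825897 on the minus strand, PLK1 at chr16:23678639-23678938 on the plus strand and CDC20 at chr1:43358731-43359030 on the plus strand.
PIF1: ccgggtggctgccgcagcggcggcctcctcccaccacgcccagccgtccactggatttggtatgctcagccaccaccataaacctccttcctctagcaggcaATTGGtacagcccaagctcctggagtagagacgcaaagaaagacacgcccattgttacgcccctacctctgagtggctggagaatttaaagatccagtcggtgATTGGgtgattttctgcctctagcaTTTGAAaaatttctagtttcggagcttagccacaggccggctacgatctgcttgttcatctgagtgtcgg
PLK1: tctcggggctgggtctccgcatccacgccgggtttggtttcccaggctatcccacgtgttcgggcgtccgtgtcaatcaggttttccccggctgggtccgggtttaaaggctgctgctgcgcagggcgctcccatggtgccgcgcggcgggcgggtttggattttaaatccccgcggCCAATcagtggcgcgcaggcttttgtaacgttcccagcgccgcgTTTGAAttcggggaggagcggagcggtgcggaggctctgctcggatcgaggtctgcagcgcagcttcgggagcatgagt
CDC20: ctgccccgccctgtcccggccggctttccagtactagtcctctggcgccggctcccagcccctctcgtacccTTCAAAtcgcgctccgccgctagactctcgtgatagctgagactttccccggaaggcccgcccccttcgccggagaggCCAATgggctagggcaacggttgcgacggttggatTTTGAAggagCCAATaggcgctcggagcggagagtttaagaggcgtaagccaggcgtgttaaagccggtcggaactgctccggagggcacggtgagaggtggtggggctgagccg
TTTGAA begins 20 bases before the start in PIF1, 29 in PLK1 and 65 in CDC20, which also holds TTCAAA 178 bases before it. Of 50 mitosis promoters that could be matched, 62% held TTTGAA on either strand, against 9.33% of the 8201 matched promoters of protein-coding genes compared and 15.4% of all 27305 in the table. CCAAT was held by 78% of the mitosis promoters and 37.9% of those of the protein-coding genes compared, and the motifs could overlap by no more than 1 letter. Of the 10 matched promoters of mitosis genes lower by at least 1, 6 held TTTGAA, a share of 60% against 62% of the list, and 10 held CCAAT, 100% against 78%. Among all 53 matched protein-coding genes lower by at least 1, 18.9% held it and 67.9% held CCAAT, and among the 209 higher, 10% and 34.9%. A match of letters is a description and not a binding site.

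Genes of DNA replication had a median near that of all genes compared. Of 48 compared, 2 were higher by at least 1, where 4.15% of all genes were, and none was lower. The median was 0.13 on histidine, against 0.11 over all genes, and -0.03 alone. It turned to -0.07 under the median-ratio scaling. Scaled, neither of the 2 genes, CDT1 and CCNE2, reached the threshold. CDT1, which loads the replicative helicase onto origins, was at 47.4, 49.6, 49.2 and 115 FPKM, a difference of 1.20. CCNE2, a cyclin of the entry into S phase, was at 6.20, 5.15, 5.69 and 12.6. ORC1, a subunit of the origin recognition complex, differed by 0.80, while MCM6 of the helicase and POLD2 of DNA polymerase delta differed by -0.71 and -0.79. Of the list, 25 genes lay above the median of all genes compared and 23 below it. Of 16 histone genes compared, 3 were lower by at least 1, all on few reads, with a median of -0.20 on histidine and -0.02 alone. After scaling, the median was -0.35 and 4 were lower. H2BC4 was at 26 reads with histidine and 1 with the combined treatment, a log2 read ratio of -4.44 (95% interval -9.79 to -1.83). Scaled, the ratio was -4.64 (-9.998 to -2.03) on histidine and -1.46 (-2.61 to -0.40) for 6-MP alone, where the interval also excluded 0. H2AC20 went from 26 to 3 reads and H1-2 from 25 to 4. Most histone messages lack a poly(A) tail, and these libraries were made from poly(A) RNA.

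MYC, a transcription factor that drives ribosome and nucleotide synthesis, was at 70.4, 64.9, 65.0 and 17.7 FPKM, a difference of -1.82 on histidine and -0.11 alone. Its read ratio on histidine was -1.87 (95% interval -1.97 to -1.78). The other 9 genes of the MYC network compared were between -0.28 and 0.69, and the antagonists MXD4, MXD1, MXD3 and MXI1 were higher by 0.69, 0.55, 0.52 and 0.36, none past the threshold. The median of the network was 0.24 and, scaled, 0.07, with MYC the 1 gene past the threshold in both. Genes of ribosome biogenesis lay below the median of all genes in 39 of 39 cases, and 38 of them were below 0. Their median was -0.65 on histidine and 0.0045 alone, and 3 were lower by at least 1. Scaled, the median was -0.83 and 10 were lower by at least 1. The 3 were RRS1, an assembly factor of the large subunit, at 11.6 with histidine and 4.19 with the combined treatment, MYBBP1A, a nucleolar protein, at 23.1 and 10.0, and NCL, nucleolin, at 189.8 and 90.6. DKC1, the pseudouridine synthase dyskerin, missed the threshold at -0.99. The cytosolic ribosomal proteins themselves had 0 of 76 genes past it, with a median of 0.15 that turned to -0.05 under the median-ratio scaling, where again none passed it, and RPL3 was at 511, 528, 532 and 758 FPKM.

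Sterol and fatty acid synthesis was the list with the lowest median, -0.69 on histidine against 0.0096 alone. Of 31 genes compared, 10 were lower by at least 1, none was higher, and 27 lay below 0. The scaled median was -0.85 and 12 were lower. INSIG1, which holds the sterol sensor in the endoplasmic reticulum, lies on chromosome 7 from 155297776 to 155310235 and was at 70.6, 75.9, 71.1 and 23.3 FPKM, a difference of -1.66. FASN, fatty acid synthase, on chromosome 17 from 82078338 to 82098294, was at 68.7, 69.4, 65.1 and 21.7, a difference of -1.63. HMGCS1, which makes HMG-CoA for sterol synthesis, was at 25.8, 24.4, 28.9 and 9.87. Each of these genes was at nearly the same level in the other 3 libraries and lower with the combined treatment. The sterol enzymes DHCR7, MSMO1 and SQLE, the fatty acid genes ACLY and FADS2 and the regulator SREBF1 differed by -1.16, -1.07, -1.06, -1.02, -1.01 and -1.01.

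**Figure D3:**
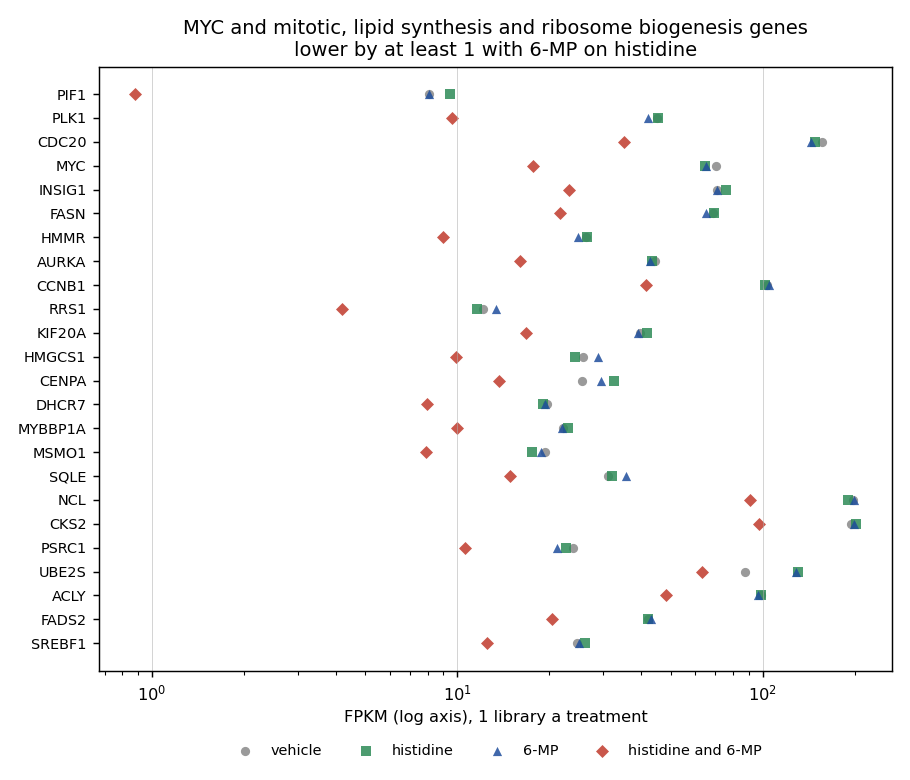
FPKM on a log axis of 24 genes lower by at least 1 with 6-MP on histidine, MYC and members of the lists of mitosis, of sterol and fatty acid synthesis and of ribosome biogenesis, with 1 marker for each of the 4 libraries. The combined treatment is the leftmost marker in every row, from PIF1 at 0.88 FPKM to CKS2 at 97.2.

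The enzymes that make and salvage purines had few members past the threshold. In de novo purine synthesis none of 12 genes passed the threshold, 10 were below 0 and the median was -0.44 on histidine and 0.01 alone. After scaling, the median was -0.63 and 1 gene, PFAS, was lower by at least 1. PFAS, the fourth enzyme of the pathway, went from 25.7 with histidine to 13.1 with the combined treatment, a difference of -0.92, while IMPDH2, which commits IMP to guanine nucleotides, went from 27.6 to 46.8, a difference of 0.74, and its paralog IMPDH1 from 19.0 to 11.3, -0.71. The 2 IMP dehydrogenases therefore differed in opposite directions. Of 20 genes that handle thiopurines, 14 were compared. Of these, 1 was higher by at least 1, where 4.15% of all genes compared were. Their median of 0.07 turned to -0.10 under the median-ratio scaling, where none passed. HPRT1 was at 19.3, 18.4, 18.0 and 27.1, a difference of 0.54, and TPMT, the thiopurine methyltransferase, chosen after its values were seen, at 7.48, 8.31, 6.63 and 9.15. The equilibrative nucleoside transporter SLC29A1 differed by -0.69 and the purine nucleoside phosphorylase PNP by -0.64.

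Mismatch repair, which meets thioguanine in DNA, had 0 of 8 genes past the threshold. EXO1, an exonuclease, differed by 0.78, and MSH6, a mismatch sensor, by -0.43. Their median of 0.12 turned to -0.07 under the median-ratio scaling, where again none passed. Folate and one-carbon metabolism had 0 of 15 genes past the threshold, with a median of -0.20 on histidine and 0.05 alone. Scaled, the median was -0.38 and again none passed. MTHFD1L, a mitochondrial formate producer, differed by -0.66 and FPGS, which traps folates in the cell, by -0.60. The 4 genes of histidine breakdown had a mean FPKM under 1 and were not compared. AMDHD1 had 14, 30, 16 and 43 reads, a log2 read ratio on histidine of 0.78 (95% interval 0.08 to 1.51) and, scaled, of 0.58 (-0.13 to 1.30), which includes 0. HAL had 9, 22, 8 and 10, FTCD 4, 4, 2 and 16, and UROC1 0, 0, 1 and 1. SIRT5, the mitochondrial desuccinylase that the study followed up, had 0.36 on histidine and -0.05 alone, and its partner HINT1 had 0.27 and 0.06. Neither reached the threshold. The study used the same fold size together with an adjusted P value, and took SIRT5 from the overlap of its gene lists with those of a patient dataset. It also reported higher SIRT5 mRNA and protein with the combined treatment in cell lines, and higher SIRT5 in mice and patient samples. For HINT1 it reported more protein and unaltered mRNA. The log2 read ratio of SIRT5 on histidine was 0.45 (95% interval 0.30 to 0.61) and, scaled, 0.25 (0.09 to 0.41). That of HINT1 was 0.28 (0.20 to 0.35) and, scaled, 0.07 (-0.0033 to 0.15), so that its interval reached 0 under this scaling. The median of the 7 sirtuins and HINT1 was 0.17 and, scaled, 0.01, and none passed the threshold with either scaling. SIRT2 was at 3.13, 1.87, 1.14 and 2.40 FPKM, highest with vehicle and lowest with 6-MP, with 0.25 on histidine and -0.95 alone.

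Stress genes of the amino acid response, which ATF4 controls, were in part higher. Of 26 compared, 7 were higher by at least 1 and none lower, with a median of 0.38 on histidine and 0.06 alone. The scaled median was 0.18 and 5 were higher, without CEBPB and DDIT3. ATF5, a transcription factor, was at 11.3, 10.8, 16.2 and 58.4 FPKM, a difference of 2.33 on histidine and 0.48 alone. ATF3 was at 2.66, 3.24, 2.58 and 11.7, DDIT4, an inhibitor of mTORC1, at 20.9, 20.6, 22.4 and 60.3, PPP1R15A, which restores translation, at 5.67, 5.98, 6.29 and 16.2, and TRIB3 at 8.72, 8.20, 8.62 and 20.9. CEBPB and DDIT3 passed the threshold at 1.01 and 1.11. ASNS, asparagine synthetase and chosen after its values were seen, had a mean FPKM under 1, at 0.46, 0.61, 0.55 and 1.24.

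Genes of antigen presentation by MHC class II stood high as a group. All 7 compared were above 0 on histidine, 4 of them by at least 1, with a median of 1.04 on histidine and 0.08 alone. After scaling, the median was 0.84 and 2 were higher by at least 1, HLA-DOA and HLA-DMA. HLA-DRA was at 205, 181, 266 and 403 FPKM, HLA-DOA, a modulator of peptide loading, at 5.89, 5.47, 5.95 and 16.2, HLA-DMA, which catalyses loading, at 6.87, 6.35, 7.50 and 17.3, and HLA-DPA1 at 31.6, 31.4, 33.4 and 65.8. CD74, the invariant chain, was 0.76 higher, and CIITA, the coactivator of these genes, chosen after its values were seen, 0.49. HLA genes vary between people, and how reads of near-identical members were assigned was not stated in the sources used here. Of 14 MHC class I genes only HLA-E passed the threshold, at 30.5, 31.4, 32.3 and 88.6 FPKM, a difference of 1.47, while the median of the list, 0.07, turned to -0.11 under the median-ratio scaling, where HLA-E was again the 1 gene past it. Of 34 interferon-stimulated genes 3 were higher by at least 1, where 4.15% of all genes compared were, and none lower. Their median was 0.43 on histidine and -0.0049 alone. The genes past the threshold were IRF7, HERC5 and TRIM22, with 1.21, 1.20 and 1.12. Scaled, the median was 0.21 over 33 genes and 2 were higher, without TRIM22.

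Receptors of homing and adhesion had 6 of 19 genes higher by at least 1 and none lower, with a median of 0.55 on histidine and -0.0084 alone. Without the 3 genes that passed the filter only through the combined treatment, ITGB2 and RGS16 among them, 4 of 16 were higher and the median was 0.51. The scaled median was 0.36 over 18 genes and 5 were higher, without ICAM1. CCR7, the chemokine receptor that guides lymphocytes to lymph nodes, on chromosome 17 from 40553769 to 40565472, was at 1.67, 2.24, 1.51 and 17 FPKM, a difference of 2.47. ITGB2 and ITGAM encode the subunits of the integrin Mac-1. ITGB2 was at 0.53, 0.73, 0.50 and 8.42, a difference of 2.44, and ITGAM at 3.14, 3.16, 3.06 and 19.2, a difference of 2.28. ITGAM was at nearly the same level in the other 3 libraries, while the pattern of ITGB2 was fixed by the filter, as was that of RGS16. RGS16, a regulator of G protein signalling, had 2, 3, 3 and 142 reads, a log2 read ratio on histidine of 5.83 (95% interval 4.25 to 8.12). S1PR2, a receptor for sphingosine 1-phosphate, was at 2.01, 2.41, 2.68 and 7.49 FPKM, and ICAM1 passed the threshold at 1.01.

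The remaining lists held few genes past the threshold. Of 35 genes of the actin cytoskeleton only ACTB passed it, at 976, 937, 916 and 339.6 FPKM, a difference of -1.46, while ACTG1, whose sequence is close to it and which was chosen after its values were seen, was at 729.8, 709, 765 and 1079. How reads shared by them were assigned was not stated in the sources used here, so both levels are uncertain. The median of the list was -0.08 and, scaled, -0.27, where TMSB4X passed as well. Of 20 snoRNA host genes 3 were higher, SNHG1 at 40.6 with histidine and 130.2 with the combined treatment, SNHG7 at 18.5 and 52.7 and SNHG6 at 41.4 and 111, and 2 were lower, SNHG4 at 21.4 and 6.96 and DANCR at 8.35 and 3.53. The host genes therefore went both ways, with a median of 0.28 and, scaled, 0.12, with 3 higher and 3 lower. Glycolysis and hypoxia response had 0 of 25 genes past the threshold with a median of -0.19, and the respiratory chain 0 of 47 with -0.25. Scaled, the medians were -0.38 and -0.43, and HK2, PGK1 and ENO1 of the first and ATP5MC1 of the second were lower by at least 1. HK2, a hexokinase, PGK1 and ENO1 differed by -0.97, -0.92 and -0.85, and ATP5F1B, a subunit of ATP synthase, by -0.63. Of 34 genes of lysosome and autophagy only NEU1, a sialidase, passed it, at 1.14. Their median was 0.18 and, scaled, 0.0050, where none passed. Of 17 immediate early genes and NF-kappaB feedback genes IER5 was higher by 1.13 and NFKBIB lower at -1.27, and the median of 0.06 turned to -0.15 over 16 genes under the median-ratio scaling, where NFKBIB passed the threshold and IER5 did not.

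Among all protein-coding genes whose FPKM averaged 5 or more, the 12 highest on histidine included 4 that are in none of these lists. FCGRT, the neonatal Fc receptor, on chromosome 19 from 49506816 to 49526428, was at 1.34, 1.39, 2.41 and 15.4 FPKM, a difference of 2.78 on histidine and 0.54 alone. IGFBP4, which binds insulin-like growth factors, was at 10.7, 11.2, 16.2 and 71.5, a difference of 2.58 on histidine and 0.55 alone. KCNJ2, a potassium channel, was at 4.17, 2.69, 3.81 and 15.1, and TNFSF9, the ligand of 4-1BB, at 2.22, 2.49, 3.27 and 14.7. The cut of 5 also used the mean of all libraries. FCGRT, KCNJ2 and TNFSF9 were under 5 FPKM in every library but that of the combined treatment, and passed the cut only through it. Their place among the highest was thus in part fixed by the cut. For 6-MP alone, FCGRT and IGFBP4 were below the threshold, with counting intervals of the log2 read ratio that excluded 0 (0.44 to 1.26 and 0.40 to 0.79). TNFSF4, the ligand of OX40, went the other way alone, at 4.79, 3.94, 3.31 and 19.7, with 2.07 on histidine and -0.43 alone. Of the 12 lowest, FAM72B and GPD1L are in no list, with -1.39 and -1.29. FAM72B has near-identical copies, so its reads are uncertain. Outside protein-coding genes, PURPL, a long noncoding RNA that acts on p53, was at 2.88, 2.65, 3.27 and 19.1, a difference of 2.46 on histidine and 0.14 alone. RGMB-AS1, antisense to RGMB, was at 2.64, 2.71, 3.37 and 11.5, and as the use of strand in counting was not stated, its reads cannot be told apart from those of its partner. The unnamed long noncoding genes ENSG00000269155 and ENSG00000266088 were higher by 1.82 and 1.69. PURPL, RGMB-AS1 and ENSG00000266088 were also under 5 FPKM in every library but that of the combined treatment. Like TNFSF4, they passed the cut only through it, so that their being named was in part fixed by the cut. Of small RNA genes MIR5587 had 14 reads with histidine and 1 with the combined treatment (95% interval of the log2 read ratio -8.95 to -0.83), SNORA73B 35 and 4, SNORD62B 26 and 5 and MIR4740 50 and 13.

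6-MP alone passed the threshold in 15 protein-coding genes. They were chosen for a difference between 6-MP and vehicle, which in part fixes the place of vehicle among the libraries. In 10 of the 12 that were higher, vehicle was the lowest of all 4 libraries, in REXO4 by as little as 1.66 against 1.70 FPKM, and in 3 of the 3 that were lower, H2AC13, CWC25 and NMRAL1, it was the highest. It lay beyond each of the other libraries by at least 1 in 2 of the 12 and in 0 of the 3. Over all classes, vehicle was lowest in 40 of the 59 genes higher alone, in 13 of them by at least 1, and highest in 52 of the 92 lower alone, in 8 of them by at least 1. C4orf48, on chromosome 4 from 2041995 to 2043964, was at 6.56, 39.8, 42.0 and 29.7 FPKM, so that the histidine library lay beside that of 6-MP and only vehicle stood apart. Its difference was 2.51 alone and -0.41 on histidine. INAFM1 was at 1.42, 7.08, 7.61 and 11.7, CRLS1, cardiolipin synthase, at 0.46, 1.95, 2.13 and 0.90, PDF, a mitochondrial peptide deformylase, at 1.07, 4.31, 3.72 and 3.01, PDXP at 0.48, 2.34, 2.10 and 1.48 and RAB5IF at 2.28, 6.40, 5.98 and 4.90. In these 5 genes too, vehicle was lowest and histidine lay beside 6-MP. GON7 was at 1.74, 4.42, 6.89 and 1.93, and SPATC1L at 1.98, 2.41, 5.73 and 4.02. REXO4 was raised in the 6-MP library only, at 1.66, 1.70, 4.67 and 1.99. LY6E, which missed the threshold alone at 0.86, had -1.17 on histidine, from 4.95, 10.2, 9.83 and 4.00.

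Only 3 protein-coding genes passed the threshold in both comparisons, and all were higher. SEMA5B, a semaphorin of axon guidance, on chromosome 3 from 122909082 to 123028605, had 12, 8, 244 and 550 reads, or 0.10, 0.06, 1.87 and 5.01 FPKM. It passed the filter only through the combined treatment. Its difference was 2.50 on histidine and 1.38 alone, and its log2 read ratios were 6.37 (95% interval 5.38 to 7.59) and 4.25 (3.41 to 5.22). TMPRSS3, a membrane serine protease, on chromosome 21 from 42371887 to 42396091, was at 1.55, 1.26, 5.46 and 10.4, a difference of 2.33 on histidine and 1.34 alone. C1QL1, a secreted C1q-like protein, on chromosome 17 from 44959693 to 44968303, was at 2.56, 3.59, 6.27 and 14.9, a difference of 1.79 and 1.03. In these 3 genes both libraries with 6-MP lay above both without it, and the combined treatment lay highest. They were chosen for being higher in both comparisons, which in part fixes this order.

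**Figure D4:**
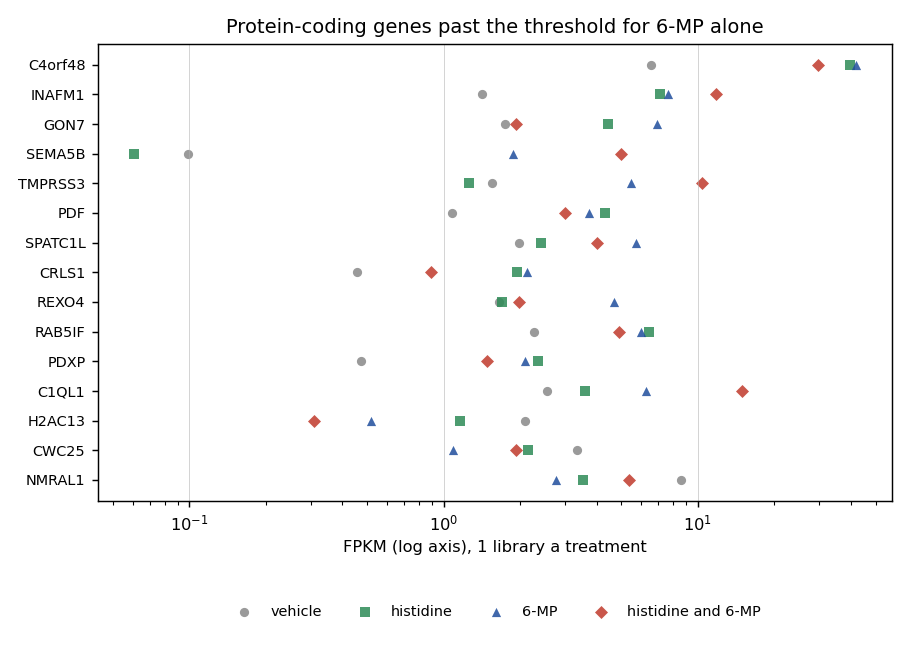
FPKM on a log axis of the 15 protein-coding genes past the threshold for 6-MP alone, sorted by that difference, with 1 marker for each of the 4 libraries. Vehicle is the leftmost marker for 10 of the upper 12 genes, and SEMA5B, TMPRSS3 and C1QL1 have both libraries with 6-MP to the right of those without it. The choice of the genes in part fixes these orders.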

How the data were processed

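Poly(A) RNA of 4 libraries (TruSeq Stranded mRNA), 1 for each treatment, was sequenced and quantified for the authors by a company, and the authors deposited FPKM values per gene. The submitters' processing notes name Trimmomatic, HISAT2, Cufflinks, HTSeq and the builds hg38 and GRCh38, while versions, settings and the use of strand are not given in the sources used here. FPKM holds a gene relative to the reads of its library, so abundant genes that differ shift the others.

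Differences of log2(FPKM + 1) were computed for genes whose FPKM averaged at least 1 and counted from a size of 1. DESeq2, which the authors used, was not run, since there are no replicates. Reads were recovered from the steps of the FPKM values. They came out whole for 29802 of 29833 genes and summed to between 99.94% and 99.951% of the library totals. For 1436 genes the shortest length giving whole reads was raised to a multiple, at most 14, nearer the GENCODE length. These reads served only for depth and for the exact Clopper-Pearson 95% intervals, and reads without molecular identifiers are not independent molecules.

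The comparison, the 26 gene lists and the rule for named genes were chosen with earlier results of these data known. The rule names, among genes compared, the 12 highest and 12 lowest protein-coding genes of mean FPKM at least 5, up to 5 members of each list with the largest difference, the study's own genes, the 6 protein-coding genes at each end of the difference between the effects, every protein-coding gene past the threshold alone or in both, and the 5 highest and 5 lowest other genes. A few members of the lists count in them but are not reported here. Further members of a list are named to describe its range and were chosen after their values were seen. Alternatives were a pseudocount of 0.1, no filter, a mean FPKM of at least 5, median-ratio scaling, TPM scaling, a threshold of 1.5 and protein-coding genes only. Of the promoters, those of symbols in a RefSeq table were matched, and TTTGAA and CCAAT were searched on both strands. The scripts, run with matplotlib 3.10.9, scipy 1.17.1, pandas 2.3.3 and numpy 2.4.6 under Python 3.11.15, were tested on simulated data.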

Additional observations from a re-analysis of the deposited data

Results flagged for a closer look

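The effects had opposite signs, both past the threshold, in 20 genes for 6-MP on histidine and for 6-MP alone, 15 of them higher on histidine. These were 15 of the 92 genes lower alone, where 4.15% of all genes compared were higher on histidine. The other 5 were of the 59 genes higher alone, where 1.4% of all were lower on histidine. Among small RNAs it was 10 of 65, where 16.9% of the class were higher on histidine, and 4 of 31, where 14.4% were lower. None of the 20 is protein-coding. They are 14 genes of small RNAs, 3 of long noncoding RNAs and 3 pseudogenes, on 3 to 119 reads over the 4 libraries together. The difference between the effects was not tested, since each rests on 1 library per treatment.

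BRCA1P1, a pseudogene of BRCA1 on chromosome 17 from 43168170 to 43168249, had the greatest such difference among genes averaging 5 FPKM or more. It was at 21.8, 8.88, 8.96 and 38.8 FPKM, in the order used above, on 25, 11, 11 and 40 reads. The effects were 2.01 on histidine and -1.20 alone, which differ by 3.21. Reads shared with BRCA1 make its level uncertain, and the difference was not tested.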

How the results depend on the processing

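The counts of genes past the threshold, given in the order 6-MP on histidine, 6-MP alone, both in the same direction, and effects that differ by at least the threshold, moved with most settings, and in each setting 6-MP on histidine had more than 6-MP alone. With a pseudocount of 0.1 they were 1278, 389, 102 and 1501, against 707, 151, 28 and 862 with a pseudocount of 1. Without a filter on mean FPKM they were 1119, 344, 49 and 1555, and with a mean FPKM of at least 5, where fewer genes were compared, 264, 17, 3 and 282. TPM scaling, which multiplies every value by about 4 and so brings more genes over the filter, gave 2819, 1162, 298 and 3347. A threshold of 1.5 gave 224, 51, 11 and 295, and protein-coding genes only gave 355, 15, 3 and 391. Median-ratio scaling moved no total by over 1.5 times but moved 18 of 50 list medians by more than the reach of their members' median counting interval to either side, and turned the 6 lists named with it above. A mean FPKM of at least 5 took the median of immediate early and NF-kappaB feedback genes on histidine to -0.0018. Several list medians for 6-MP alone, all near 0, also changed sign with the filter or the scaling. No value past the threshold changed direction under the settings tried, but this is no sign of stability. A pseudocount, a filter or a threshold cannot turn a difference. Median-ratio scaling shifted the log2 ratios by only 0.20 on histidine and 0.0075 alone. No paired analysis was possible because no treatment has a second library, and no replicate could be left out. Depth limits small RNA genes most, since those past the threshold rested on a median of 6 reads on histidine and 5 alone.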

Other observations

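Genes named above because they were high in this comparison lie next to each other on chromosome 17. They span a stretch of 122 kb from 40443450 to 40565472 on GRCh38, which was chosen after the values had been seen. The stretch holds 4 listed genes, IGFBP4, TNS4, ENSG00000266088 and CCR7, of which 3 passed the expression filter. All 3 were higher by at least 1 with 6-MP on histidine, where 4.15% of all genes compared were. This was fixed by the choice, since the 3 were named for being high and the stretch was drawn from IGFBP4 to CCR7. IGFBP4 was at 2.58, the long noncoding ENSG00000266088 at 1.69 and CCR7, on the opposite strand, at 2.47. With 6-MP alone the same genes were at 0.55, 0.16 and -0.09. TNS4 was listed at 0 in every library but that of the combined treatment, where it was at 0.032 FPKM.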
